A study of Gallus gallus with 9 samples.

Results

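The baseline described here is the poly(A) RNA of wild-type chicken (Gallus gallus) primordial germ cells, the embryonic precursors of eggs and sperm. It rests on the 3 libraries whose labels read control, of 9 libraries in the series. The genotype label of all 3 is wild type with a control vector, and the labels do not say what the vector carries, the age or sex of the donor embryos, or how the cells were grown. The other 6 libraries, labelled LIN28A knockout and LIN28B knockout, are not described. The labels number the controls as replicates 1 to 3 without saying whether they came from separate cultures, so the spread between them may be technical in part.

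Primordial germ cells of birds form from cells that inherit germ plasm, travel through the blood to the gonad and stay undifferentiated until then. They are known for keeping pluripotency factors on together with germ cell RNA-binding proteins and the piRNA pathway, which silences transposable elements. In culture they are known to depend on FGF, activin and insulin signals.

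Counts per gene were turned into CPM, the count divided by the library's total and multiplied by 1000000. CPM was not divided by transcript length, so an order of genes by CPM is an order of read share and not of transcript number. Library totals were 31742661, 30814133 and 27755975 counts in replicates 1, 2 and 3. Over 24356 listed genes, a gene was called present at 1 CPM or more in every control library, at or under the floor at 3 counts or fewer in every library, and low otherwise. The floor of 3 counts was 0.0945, 0.0974 and 0.108 CPM and covers counting error only. Of all listed genes 12709 were present (52.2%), 4757 were low and 6890 were at or under the floor, 5329 of them without a count. Of the 13344 genes with a usable symbol 10895 were present (81.6%), 2189 were low and 260 were at or under the floor. List members are read against the 81.6%, since only genes with a symbol can be matched. Symbols were at hand only for genes with at least 10 counts over 6 libraries, so having one already favours genes with reads. Genes under that limit had at most 8 counts in any control library. Of 657 listed names 138 had no match, and silent members can be among them. Shares of matched members can therefore be too high, and the 81.6% carries the same filter. Just inside the threshold was NRAP at 2.02, 1.01 and 1.22 CPM, and just outside it BLB1 at 0.977, 1.27 and 1.41 CPM. Replicate 3 stood apart from the other libraries. Among genes with a mean of 10 CPM or more, 0 differed by more than 2-fold between replicates 1 and 2, 110 between replicates 1 and 3, and 144 between replicates 2 and 3. Leaving out any library can only raise the number of present genes, as each must pass in every library. That number was 12782, 12792 and 13084 without replicates 1, 2 and 3 in turn. In RNA from many cells, fewer cells of a type and less RNA per cell cannot be told apart. Below, values of 3 libraries are in the order of replicates 1, 2 and 3, and means are given ± SD over these 3 (n = 3).

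The germ cell label was first set beside 5 marker genes, and all 5 were present in all 3 libraries. Since 81.6% of genes with a symbol were present too, this call alone is no check of cell identity. DAZL, a translation regulator of germ cells, was at 1824, 1911 and 2029.9 CPM. DDX4, the vasa RNA helicase of germ granules, was at 624, 597 and 615 CPM. The libraries lay within 1.11 times of each other for DAZL and within 1.04 times for DDX4. The homeobox pluripotency factor NANOG stood at 679, 676 and 532 CPM, with replicate 3 the lowest. PRDM14, a repressor that guards germ cell identity in the mouse, was at 117, 118 and 115 CPM. KIT, the receptor for stem cell factor, was at 227, 226 and 177 CPM, again lowest in replicate 3. By mean CPM these markers held ranks 26 (DAZL), 167 (NANOG), 178 (DDX4), 955 (KIT) and 2081 (PRDM14) among the 24356 genes.

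**Figure D1:**
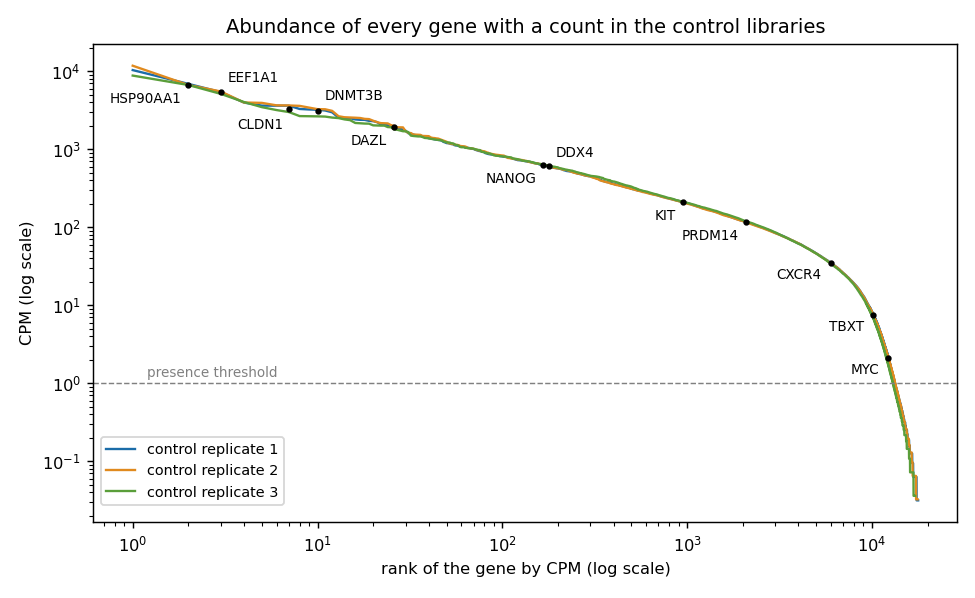
CPM of every counted gene (y axis, log scale) against its rank (x axis, log scale), with a line for each of the 3 control libraries and dots for named genes at their mean. The 3 lines run close together. DAZL, NANOG and DDX4 sit at ranks 26, 167 and 178, while TBXT and MYC lie between 1 and 10 CPM.

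Read shares were spread over many genes. The 10 genes with the most reads took 4.73%, 4.96% and 4.23% of the counts of a library, and 1084, 1062 and 1078 genes made up 50% of them. A mean of 1000 CPM or more was reached by 69 genes, 100 CPM or more by 2529 and 10 CPM or more by 9559. The gene with the most reads, ENSGALG00000032142, has no symbol in the files and was at 10377, 11808 and 8824 CPM. Among the 50 genes with the highest mean CPM, 10 had no symbol, so the names that follow leave out much of the top. They held ranks 1, 4, 5, 8, 9, 11, 12, 14, 19 and 28. Those at ranks 4 and 14 were highest in replicate 3, and the others were lowest there. No mitochondrially encoded gene had a symbol, and whether the unnamed genes include any was not checked. Genes without a symbol held 7.61% to 8.91% of the counts of a library.

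Among the 15 genes with a symbol and the highest mean CPM, chaperones, translation factors, actin and glycolytic enzymes made up 9, and 2 were genes known from pluripotent cells. First came HSP90AA1, an inducible HSP90 chaperone, at 6910.0, 6690.3 and 6684 CPM. EEF1A1, which brings aminoacyl-tRNA to the ribosome, followed at 5417, 5516 and 5138 CPM, and cytoplasmic actin ACTB at 3626, 3653 and 3188 CPM. All 3 differed between libraries by less than 1.2 times. CLDN1, a tight junction protein of epithelia, was at 3215, 3275 and 3474 CPM and held rank 7. DNMT3B, an enzyme that sets new DNA methylation and is high in pluripotent cells, was at 3146, 3114 and 3005 CPM and held rank 10. Both varied by less than 1.2 times as well. The pluripotency factor POU5F3 (listed as Pou5f3), the avian relative of mammalian OCT4, was at 2075, 2168 and 1918 CPM and held rank 22. DAZL, the first of the listed germ cell determinants, held rank 26.

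The other genes of the first 15 with a symbol had means between 2008 and 2527 CPM. They were the glycolytic genes GAPDH (2527 ± 129.6 CPM), PKLR (2469 ± 88.2 CPM) and ENO1 (2460.4 ± 103 CPM), and RPSAP58 (2409 ± 218 CPM), listed under the name of a ribosomal protein pseudogene. With them stood the calcium sensor CALM2 (2333 ± 168 CPM), LOC776816 (2215 ± 168 CPM), the nucleolar chaperone NPM1 (2176 ± 52.4 CPM), the elongation factor EEF2 (2023 ± 14.5 CPM) and the initiation factor EIF4G2 (2008 ± 149 CPM). Symbols follow the deposited tables, except that LOC numbers were replaced by a current symbol where a gene table held one. A symbol such as PKLR or RPSAP58 may stand for a chicken relative with another usual name, and reads can be shared between near-identical copies.

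Most gene families of basic cell work were present in a share above the 81.6% over all genes with a symbol. All 72 cytosolic ribosomal protein genes with a symbol were present, with a median of 602 CPM and 4.63% to 5.10% of all counts. RPL4 led them at 1877, 1994 and 1706 CPM, lowest in replicate 3, followed by RPS6 (1496 ± 54.5 CPM) and RPS3A (1491 ± 45 CPM). Translation initiation and elongation factors (54 of 54 present) held 2.21% to 2.28%, and heat shock proteins and chaperonins (63 of 69) 2.06% to 2.14%. After HSP90AA1 among the chaperones came HSP90AB1, the constitutive HSP90, at 1509 ± 116 CPM and HSPA8, the constitutive HSP70, at 1504 ± 172 CPM. Tubulins and actins were present in 20 of 24, a share near the 81.6%, with TUBB at 1501 ± 38.3 CPM and TUBB4B at 628 ± 12.5 CPM after ACTB. Splicing factors and hnRNPs were present in 34 of 34, proteasome subunits in 30 of 30, and nuclear-encoded subunits of the respiratory chain and ATP synthase in 70 of 70, with a median of 98.2 CPM. In these families HNRNPH1 averaged 1345 ± 26.4 CPM, HNRNPA2B1 1149.7 ± 67.7 CPM and HNRNPA3 1124 ± 169 CPM, all packagers and splicing regulators of nuclear RNA. The proteasome lid and base subunits PSMD1, PSMD3 and PSMD2 averaged 368, 321 and 319 CPM. ATP5B, the catalytic beta subunit of ATP synthase, averaged 973 ± 91.7 CPM, and ATP5F1AZ and ATP5PB of the same enzyme 654 ± 5.07 CPM and 260.1 ± 10.6 CPM. Mitochondrial ribosomal protein genes were present in 68 of 69, at a median of 50.7 CPM, led by MRPL44 (192 ± 7.88 CPM), MRPS26 (131 ± 9.32 CPM) and MRPL9 (115 ± 5.67 CPM).

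Histones were present in fewer cases, with 10 of 34 genes present and 21 low, where 81.6% of all genes with a symbol were present. Those with the highest CPM carry names of variants made throughout the cell cycle, H3F3B at 552, 575 and 645 CPM, H3F3C at 576, 577 and 609 CPM and H2AZ2 at 126, 133 and 139.6 CPM. Replication-dependent histone messages are known to end without a poly(A) tail, and the labels give poly(A) RNA as the molecule. Whether this bears on the count of present histones was not tested. Glycolysis genes were present in 15 of 16 matched members, with a median of 403 CPM against 25.2 CPM over all genes with a symbol. Besides GAPDH, PKLR and ENO1, the mutase PGAM1 averaged 1879 ± 76.4 CPM. Lactate dehydrogenase A, LDHA, was at 1379, 1625 and 1474 CPM, and the glucose transporter SLC2A1 at 142, 142 and 137 CPM. SLC2A14, a symbol of the same transporter family outside the list, held more reads, at 1515, 1532 and 1169 CPM. ALDOA, PGK1, PKM and SLC2A3 had no matching symbol and get no value.

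Germ cell RNA-binding determinants were present in all 10 matched members of a list of 12, with a median of 119 CPM. With 81.6% of all genes with a symbol present, a list this small can be present in full without being set apart. Below DAZL in read share came DND1, which protects germ cell messages and keeps germ cells alive in vertebrates, at 794, 797 and 650.4 CPM. CPEB1, which controls poly(A) tail length, was at 169, 173 and 142 CPM, and ELAVL2, a neuronal and germ cell RNA-binding protein, at 83.5, 78.0 and 69.4 CPM. For all 3, replicate 3 was the lowest library, by at most 1.22 times against the highest. The let-7 blockers targeted elsewhere in the series were both present, LIN28A at 162, 144 and 235 CPM and LIN28B at 52.8, 45.5 and 59.7 CPM. Both were highest in replicate 3. BOLL, the DAZ-family member tied to meiosis, was at 35.5, 32.4 and 31.7 CPM, RBM46 at 10.1, 9.57 and 9.69 CPM and the translation repressor NANOS1 at 4.32, 3.25 and 5.01 CPM. NANOS2 and NANOS3 had no matching symbol and get no value.

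Genes of the piRNA pathway were present in all 16 matched members of a list of 19, with a median of 94.3 CPM. The share over all genes with a symbol was 81.6%. PIWIL2, TDRD9 and RNF17 had no matching symbol and get no value. GTSF1, a cofactor of PIWI silencing, was at 298, 308 and 264 CPM, the PIWI protein PIWIL1 at 199, 191 and 144 CPM and MAEL, a germ granule protein, at 193, 202 and 155 CPM. Of the makers of piRNA precursors, the helicase MOV10L1 was at 189, 179 and 153 CPM and the mitochondrial nuclease PLD6 at 15.8, 16.2 and 15.5 CPM. The end-trimming enzyme PNLDC1 was at 114, 118 and 96.0 CPM and the 3′ methyltransferase HENMT1 at 6.49, 7.43 and 7.06 CPM, the lowest CPM in the list. Tudor proteins, which hold PIWI complexes together, ran from TDRKH at 188 ± 12.2 CPM and TDRD12 at 123 ± 6.54 CPM to TDRD15 at 30.4 ± 3.43 CPM. Replicate 3 was the lowest library for 12 of these 16 genes, with a list median of −0.11 on the log2 scale from each gene's mean, against 0.04 and 0.08 in replicates 1 and 2. Over all genes with a mean of 1 CPM or more, replicate 3 was the lowest for 49.6%.

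**Figure D2:**
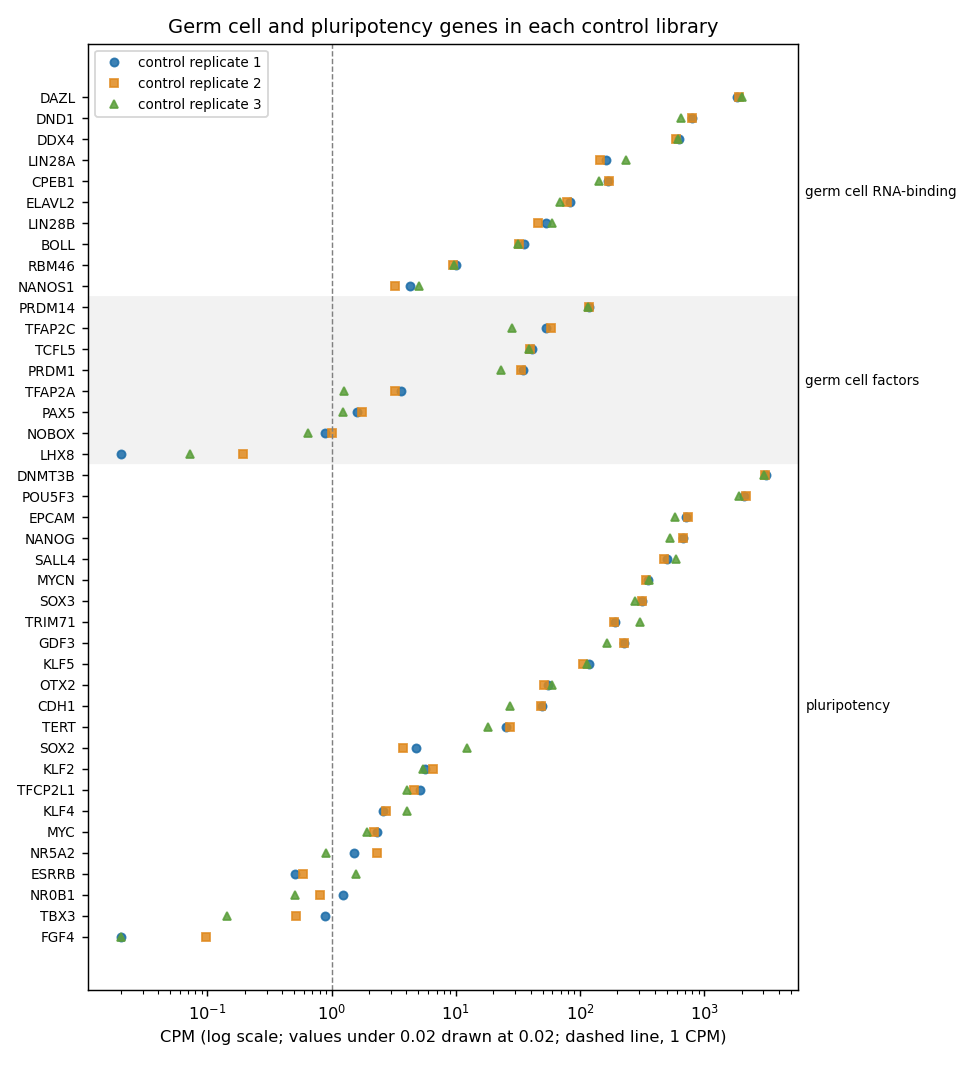
CPM on a log axis for the matched germ cell RNA-binding genes, germ cell transcription factors and pluripotency genes reported here, with 1 marker for each of the 3 control libraries and a dashed line at 1 CPM. DAZL, POU5F3 and DNMT3B lie at 1824 CPM or more in every library, while FGF4 and LHX8 lie below 1 CPM in all 3.

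Germ cell transcription factors were present in 6 of 8 matched members (75%), not above the 81.6% over all genes with a symbol. Besides PRDM14, the early germ cell factors known from the mouse were there, TFAP2C at 53.5, 58.7 and 28.4 CPM and PRDM1, the repressor BLIMP1, at 34.4, 33.5 and 22.9 CPM. TFAP2C was lowest in replicate 3 by 2.07 times against the highest library, and PRDM1 by 1.5 times. TCFL5 was at 40.8, 39.7 and 39.2 CPM, with no library apart. The oocyte factor NOBOX was low, at 0.882, 1.01 and 0.649 CPM, and so was LHX8, with 0, 6 and 2 counts. SOHLH1, SOHLH2, FIGLA and DMRT1 had no matching symbol.

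Pluripotency genes were present in 19 of 24 matched members (79.2%), near the 81.6% over all genes with a symbol. Their median was 48.7 CPM. Next to POU5F3 and NANOG, the zinc finger factor SALL4 was at 498, 476 and 592 CPM. In the SOX family, SOX3 was at 313, 314 and 278 CPM and SOX2 at 4.82, 3.73 and 12.2 CPM. Between SOX2 and SOX3 the reads thus fell mostly on SOX3 in every library. MYCN and MYC showed a like split, with MYCN at 356, 339.9 and 359 CPM and MYC at 2.30, 2.17 and 1.91 CPM. Of the KLF factors, KLF5 was at 118, 107 and 115 CPM while KLF2 and KLF4 averaged 5.87 ± 0.570 CPM and 3.11 ± 0.8 CPM. OTX2, a homeobox factor of early epiblast and brain, averaged 55.5 ± 4.21 CPM. TRIM71, a stem cell ubiquitin ligase and let-7 target, was at 193, 189 and 303 CPM, with replicate 3 1.61 times the lowest library. The TGF-beta family ligand GDF3 was at 226, 227 and 164 CPM and the telomerase subunit TERT at 25.2, 27.5 and 18.2 CPM, both lowest in replicate 3. Of the factors with fewer reads, TFCP2L1 averaged 4.61 ± 0.517 CPM, NR5A2 1.58 ± 0.721 CPM and ESRRB 0.891 ± 0.602 CPM. FGF4 was at or under the floor, with 0, 3 and 0 counts.

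DNA methylation genes were present in all 9 matched members, where 81.6% of all genes with a symbol were present. The other new-methylation enzyme, DNMT3A, was at 276, 275 and 222 CPM, maintenance methylase DNMT1 at 179, 183 and 164 CPM and its partner UHRF1 at 163, 153 and 242 CPM. The demethylating dioxygenases TET1 and TET2 averaged 17.8 ± 5.32 CPM and 16.2 ± 5.41 CPM. Replicate 3 was the highest library for UHRF1, TET1 and TET2, and the lowest for DNMT3A and DNMT1. The methyl-binding family protein MBD3, a part of the NuRD complex, averaged 691 ± 46.3 CPM. HELLS, a chromatin remodeller needed for DNA methylation, averaged 1058 ± 12.3 CPM.

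Meiosis genes were present in part. Of 26 listed genes 13 had a matching symbol, and 8 of these were present (61.5%) with a list median of 2.67 CPM. The share over all genes with a symbol was 81.6%. The meiotic cohesin subunit STAG3 was at 43.7, 44.4 and 53.9 CPM and its partner SMC1B at 21.0, 20.2 and 14.8 CPM. Next came the crossover protein MSH4 at 16.4, 17.5 and 14.3 CPM, and the axis protein SYCP3 at 7.59, 10.2 and 7.75 CPM. TEX11, a meiotic crossover protein, averaged 5.30 ± 0.103 CPM. The recombinase DMC1 was at 0.756, 0.454 and 0.180 CPM, SPO11, which cuts DNA to start recombination, had 6, 6 and 0 counts, and MEIOB 2, 3 and 0 counts, at or under the floor. Products of later eggs and sperm were present in 4 of 13 matched members. HSPA2, a chaperone abundant in mammalian testis, was at 452, 434 and 606 CPM, ZAR1, an egg regulator of early embryos, at 91.0, 85.5 and 93.0 CPM and ODF2, a centriole and sperm tail protein, at 118, 107 and 127 CPM. Egg coat proteins stayed at a mean of 1.49 CPM or less (ZP1, ZP2, ZP3 and ZP4), as did the oocyte ligands GDF9 (0.246 ± 0.180 CPM) and BMP15 (1.1 ± 0.396 CPM). Without replicate 3 the present egg and sperm products numbered 8.

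Receptors were broadly present: 126 of 153 matched genes from 8 receptor lists (82.4%), near the 81.6% over all genes with a symbol. Their median was 17.5 CPM against 25.2 CPM. Receptor tyrosine kinases, which read growth factors at the cell surface, were present in 35 of 44 (79.5%). PTK7, a catalytically silent WNT co-receptor, was at 482, 496 and 388 CPM. All 4 FGF receptor kinases were present, FGFR1 at 241, 249 and 235 CPM, FGFR2 at 108, 100.2 and 111 CPM, FGFR4 at 64.7, 70.3 and 47.1 CPM and FGFR3 at 44.6, 40.9 and 36.4 CPM. FGFR1 and FGFR2 varied between libraries by less than 1.2 times, and FGFR4 by 1.49 times. For insulin-like signals, IGF1R was at 75.8, 73.7 and 132 CPM and INSR at 39.2, 39.4 and 53.6 CPM, both highest in replicate 3. The ephrin receptor EPHA5 was at 145, 141 and 101 CPM and the neurotrophin-3 receptor NTRK3 at 108, 107 and 119 CPM. ERBB3, a neuregulin receptor, was at 71.9, 71.2 and 31.0 CPM, lowest in replicate 3. Members that were low included PDGFRA at 1.15 ± 0.311 CPM, the vessel receptor TEK at 0.315, 0.195 and 0.504 CPM and the macrophage receptor CSF1R at 0.189, 0.0649 and 0 CPM. Other receptors known from somatic lineages were present, PDGFRB of mesenchyme at 20.2, 20.3 and 21.5 CPM and RET of neural crest and kidney at 21.5, 19.7 and 12.5 CPM.

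**Figure D3:**
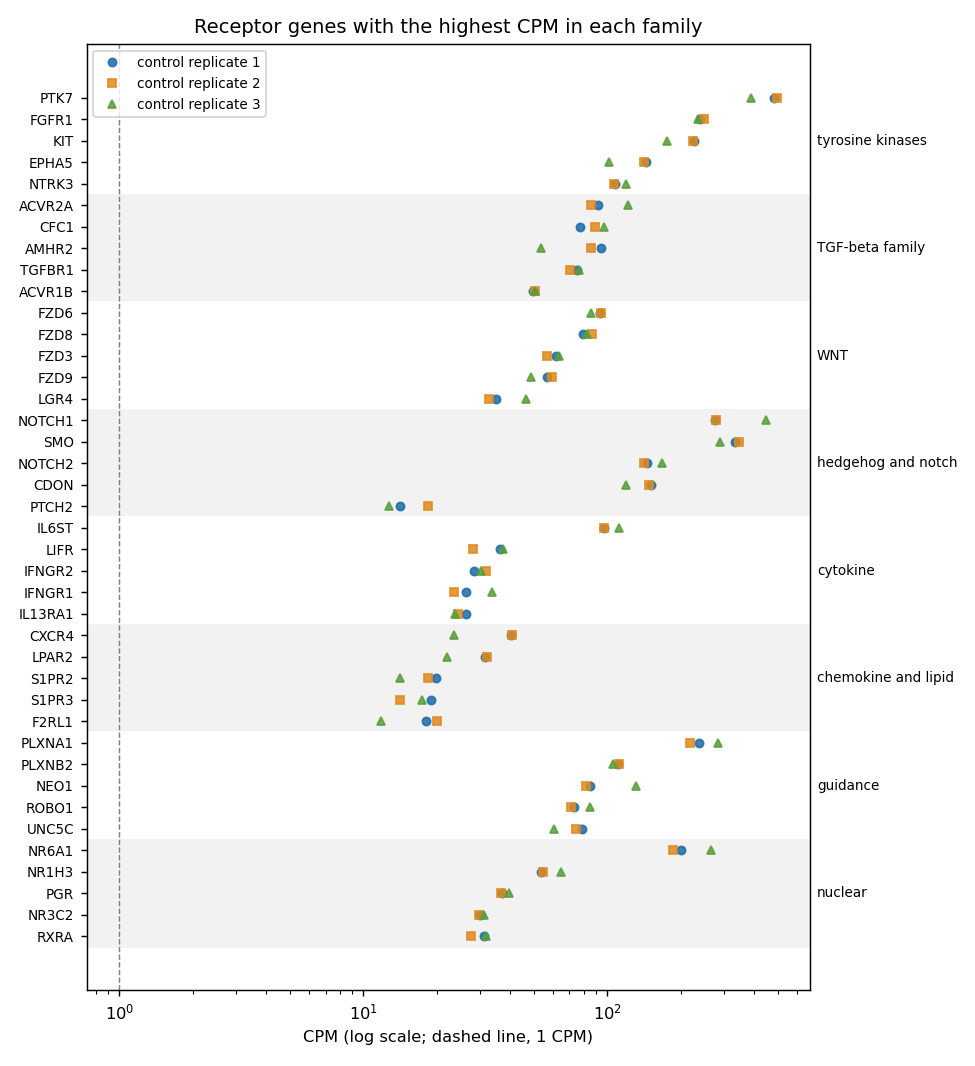
CPM on a log axis for the 5 genes with the highest mean CPM in each of 8 receptor lists, with 1 marker for each of the 3 control libraries and a dashed line at 1 CPM. All of them lie above 10 CPM in every library, from F2RL1 at 11.9 CPM in replicate 3 to PTK7 at 496 CPM in replicate 2.

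Receptors of the TGF-beta family were present in 12 of 14 matched genes (85.7%), near the 81.6% over all genes with a symbol. On the activin side, the type II receptor ACVR2A was at 92.1, 86.2 and 121 CPM, the type I receptor ACVR1B at 49.5, 50.7 and 50.8 CPM and the nodal co-receptor CFC1 at 77.4, 89.2 and 97.3 CPM. On the BMP side, BMPR1A was at 36.7, 35.2 and 41.7 CPM and BMPR2 at 15.5, 17.9 and 38.6 CPM. Replicate 3 held the most BMPR2 reads, 2.49 times the lowest library, while ACVR1B did not vary beyond 1.03 times. AMHR2, the receptor of anti-Müllerian hormone, was at 94.7, 85.6 and 53.8 CPM. TGFBR1 averaged 74.0 ± 3.51 CPM, but its type II partner TGFBR2 was low, at 1.76, 0.519 and 0.937 CPM.

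WNT receptors were present in all 13 matched genes, where 81.6% of all genes with a symbol were present. They were led by FZD6 at 93.4, 94.4 and 86.1 CPM, FZD8 at 79.5, 87.0 and 82.5 CPM and FZD3 at 61.6, 56.5 and 63.7 CPM. The co-receptors LRP5 and LRP6 averaged 35.4 ± 2.30 CPM and 16.4 ± 3.85 CPM. FZD7 varied by 2.11 times, with replicate 3 the highest. Hedgehog and notch receptors were present in all 8 matched genes. NOTCH1 was at 277, 279 and 447 CPM, NOTCH2 at 146, 141 and 168 CPM and the hedgehog transducer SMO at 335, 346 and 291 CPM. PTCH1, a hedgehog receptor that is also a target of the pathway, was at 5.86, 5.58 and 7.67 CPM.

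Cytokine receptors were present in 15 of 18 matched genes (83.3%), near the 81.6% over all genes with a symbol. IL6ST, the shared gp130 chain of the IL-6 family, was at 97.1, 96.7 and 112 CPM, and the LIF receptor LIFR at 36.4, 28.2 and 37.3 CPM. The interferon receptor chain IFNGR2 was at 28.5, 31.8 and 30.4 CPM, and the chains IFNAR1 and IFNGR1 averaged 24.6 ± 2.73 CPM and 27.9 ± 5.26 CPM. The leptin receptor LEPR was low, at 1.05 ± 0.170 CPM, and the prolactin receptor PRLR had 6, 12 and 0 counts.

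CXCR4, which guides migrating germ cells towards CXCL12, was at 40.5, 40.7 and 23.5 CPM, lowest in replicate 3 by 1.73 times. The scavenging CXCL12 receptor ACKR3, listed as CXCR7, was at 3.65, 3.44 and 9.04 CPM, highest in replicate 3. Of the chemokine and lipid receptors 12 of 19 matched genes were present (63.2%), under the 81.6% over all genes with a symbol. They included the lysophosphatidic acid receptor LPAR2 at 31.5, 32.2 and 22 CPM and the sphingosine phosphate receptor S1PR2 at 19.9, 18.4 and 14.1 CPM. The lymphocyte receptors CCR7 and CXCR5 were low, with 8, 14 and 4 counts for CCR7 and 3, 12 and 1 counts for CXCR5. Guidance receptors were present in all 14 matched genes. Among them the semaphorin receptors PLXNA1 and PLXNB2 were at 237, 219 and 284 CPM for PLXNA1 and 111, 112 and 105 CPM for PLXNB2. NEO1, a netrin and RGM receptor, was at 85.2, 82.3 and 132 CPM, and ROBO1, a receptor of SLIT proteins, at 73.2, 71.0 and 85.3 CPM.

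Nuclear receptors were present in 17 of 23 matched genes (73.9%), under the 81.6% over all genes with a symbol. NR6A1, the germ cell nuclear factor, was at 200.1, 186 and 267 CPM, highest in replicate 3. NR1H3, a sensor of oxysterols, was at 53.4, 54.7 and 64.5 CPM, and the progesterone receptor PGR at 37.2, 36.6 and 39.6 CPM. The retinoic acid receptors RARA and RARB averaged 27 ± 3.12 CPM and 16.3 ± 4.70 CPM. The estrogen receptors were low, ESR1 at 0.126, 0.325 and 1.26 CPM and ESR2 at 1.13, 0.649 and 0.252 CPM.

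Ligands had a smaller share of present genes than receptors, 30 of 49 matched (61.2%) against 82.4%, with a median of 2.35 CPM. The share was 81.6% over all genes with a symbol and 66.5% over all list members together. SLIT1, a secreted guidance molecule, was at 458, 462 and 362 CPM, TGFB1 at 119.9, 115 and 86.1 CPM and SLIT2 at 81.3, 82.9 and 71.1 CPM. All of these were lowest in replicate 3. CXCL12 averaged 19.4 ± 4.14 CPM, VEGFA 14.4 ± 1.96 CPM and BMP4 2.31 ± 0.954 CPM. FGF2, a growth factor known to sustain chicken germ cells in culture, was at 1.23, 1.78 and 1.95 CPM, and FGF8, a signal of limb and brain growth, at 1.45, 1.53 and 0.793 CPM. KITLG, the ligand of KIT, was low, at 0.788, 0.844 and 0.793 CPM, and so was the activin subunit INHBA, at 0.126, 0.227 and 0 CPM. EGF and IHH were at or under the floor, with 0, 3 and 2 counts for EGF and 2, 2 and 0 counts for IHH. For IGF1, LIF, NODAL and LEFTY2 no symbol matched.

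Families of signal carriers inside the cell were picked after values were seen. With 81.6% of all genes with a symbol present, families this small can be present in full without being set apart. All 7 SMAD genes with a symbol were present, SMAD5 at 159, 167 and 194 CPM, SMAD3 at 66.8, 65.8 and 66.9 CPM and SMAD2 at 57.4, 53.9 and 58.1 CPM. All 5 STAT genes were too, with STAT3 at 175, 172 and 189 CPM, and all 4 TCF and LEF factors, with TCF7L1 at 111, 102 and 86.6 CPM. Of the ETS variant factors 12 of 13 were present. Among them ETV5, a target and effector of FGF signals, was at 143, 139.5 and 141 CPM, with no library apart.

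Cell cycle drivers were present in all 18 matched genes, with a median of 167 CPM. The share over all genes with a symbol was 81.6%. TOP2A, which untangles replicated DNA, was at 500.4, 499 and 651 CPM, the proliferation marker MKI67 at 246, 240.1 and 407 CPM and the mitotic kinase CDK1 at 284, 280.2 and 311 CPM. Replicate 3 was the highest library for 11 of these 18 genes and the lowest for 6. Over all genes with a mean of 1 CPM or more it was the highest for 37.2%. Of the D cyclins, CCND2 averaged 187 ± 36.4 CPM, CCND3 77.1 ± 8.71 CPM and CCND1 51.6 ± 2.95 CPM. Cell cycle inhibitors were present in 10 of 14. BTG1, an antiproliferative factor, was at 127, 131 and 163 CPM, RBL1, a relative of the retinoblastoma protein, at 101, 98.6 and 96.1 CPM and CDKN1B at 68.6, 76.6 and 73.8 CPM. CDKN1A, the p53 target p21, was at 2.21, 1.59 and 4.32 CPM. The INK4 genes CDKN2A, CDKN2B and CDKN2C were low, at means of 0.335, 0.0840 and 0.189 CPM.

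**Figure D4:**
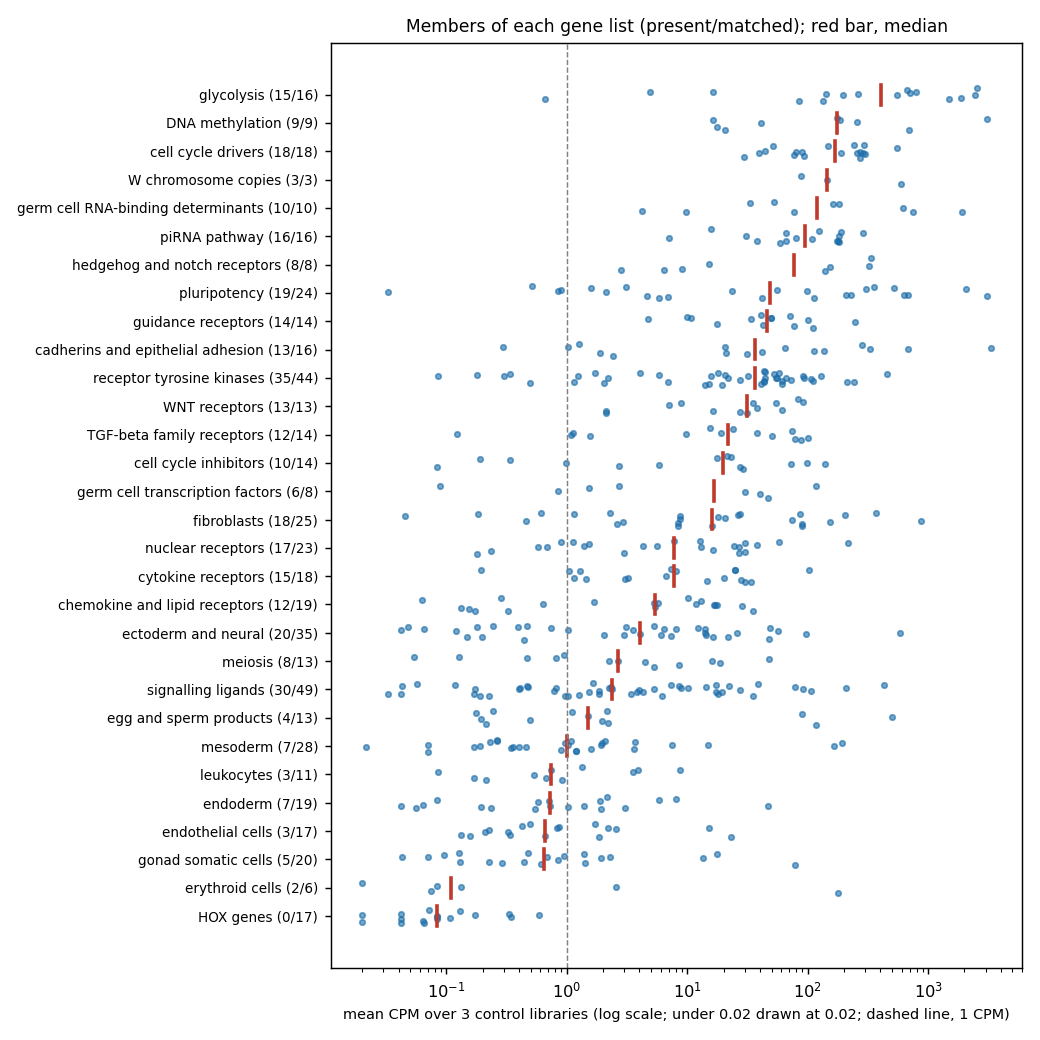
Mean CPM over the 3 control libraries (x axis, log scale) for each matched member of 30 gene lists, in order of the list median (red bar), with a dashed line at 1 CPM and the count of present over matched members beside each name. The lists of germ cell determinants, piRNA genes and cell cycle drivers lie to the right of the line with every member, while no HOX gene reaches it. The same full presence is seen for WNT, guidance, and hedgehog and notch receptors, DNA methylation genes and W chromosome copies.

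Adhesion genes held both epithelial and mesenchymal members. Cadherins and epithelial adhesion genes were present in 13 of 16 matched genes (81.2%), near the 81.6% over all genes with a symbol. After CLDN1 came EPCAM, an epithelial and stem cell surface protein, at 711, 747 and 587 CPM. N-cadherin CDH2 was at 268, 257 and 454 CPM, P-cadherin CDH3 at 129, 124 and 157 CPM and E-cadherin CDH1 at 49.8, 48.3 and 27.4 CPM. Replicate 3 had the most CDH2 reads and the fewest CDH1 reads. The keratins of simple epithelia were low, KRT8 at 0.221, 0.454 and 0.216 CPM and KRT18 at 1.98, 1.1 and 0 CPM. Of the claudins 6 of 12 were present, and CLDN12, the next after CLDN1, averaged 61.1 ± 7.64 CPM. Integrins were present in 14 of 19, with ITGB1 at 588, 589.6 and 659 CPM and its laminin-binding partner ITGA6 at 296, 288 and 411 CPM. Laminin chains were present in 6 of 9, led by LAMB1 at 577, 568 and 557 CPM.

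Lists of the somatic lineages had a smaller share of present genes than the 81.6% over all genes with a symbol, with single genes well above the threshold. The share was 25% for mesoderm, 36.8% for endoderm and 57.1% for ectoderm and neural genes. A share under 81.6% was not particular to them. It was 66.5% over all list members together, 75% for germ cell transcription factors, 79.2% for pluripotency and 61.5% for meiosis. Germ cell RNA-binding and piRNA genes were at 100%. Mesoderm genes were present in 7 of 28 matched members, with a median of 0.993 CPM. EOMES, a T-box factor of mesendoderm, was at 217, 213 and 149 CPM and TBX6, a T-box factor of paraxial mesoderm, at 184, 175 and 134 CPM. PRRX1, a limb and connective tissue factor, was at 17.3, 13.9 and 13.3 CPM. TBXT, the primitive streak factor brachyury, was at 13.3, 7.66 and 1.59 CPM, and MIXL1, another streak factor, at 3.15, 1.49 and 0.0721 CPM. Both were lowest in replicate 3, where MIXL1 had 2 counts. The heart and flank factors HAND1, HAND2 and GATA4 averaged 1.07 ± 1.07 CPM, 1.94 ± 1.45 CPM and 1.93 ± 1.15 CPM. OSR1 was at or under the floor, with 0, 2 and 0 counts. Without replicate 3 the number of mesoderm genes called present was 14.

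Endoderm genes were present in 7 of 19 matched members. HHEX, a homeobox factor of liver and blood vessel precursors, was at 53.8, 52.8 and 33.1 CPM, and the pioneer factor FOXA1 at 6.11, 4.35 and 7.06 CPM. SOX17, known for human germ cell specification as well as for endoderm, was low at 0.788, 1.04 and 0.288 CPM. FOXA2 was at 0.630, 0.941 and 0.0721 CPM and the liver carrier TTR at or under the floor, with 2, 1 and 2 counts.

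Ectoderm and neural genes were present in 20 of 35 matched members, with a median of 4.01 CPM. ELAVL4, a neuronal RNA-binding protein, was at 525, 538 and 670.5 CPM, ZIC2 at 82.9, 81.0 and 129 CPM and SOX11 at 51.2, 47.8 and 70.7 CPM. SIX3, a forebrain factor, was at 6.55, 7.79 and 28.0 CPM, FOXD3, a neural crest and stem cell factor, at 16.4, 14.0 and 35 CPM, and neuronal tubulin TUBB3 at 2.77, 4.06 and 12.2 CPM. All 6 were highest in replicate 3. Of the 23 list members with a mean of 1 CPM or more, 15 were highest and 7 lowest there. Over all genes of that level, replicate 3 was the highest for 37.2%. The neural plate factor SOX1 was low with 0, 6 and 0 counts, and PAX6 averaged 6.08 ± 0.698 CPM.

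No HOX gene was present. Of 39 listed HOX genes 17 had a matching symbol, 15 were low and 2 at or under the floor, with a median of 0.0840 CPM. All matched HOX genes together summed to 2.93, 2.89 and 0.973 CPM, HOXB1 had 0, 1 and 0 counts, and HOXD8 had 0 counts in every library.

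Markers of other cell types that such cells could carry with them were also counted. Their counts are to be read against the 81.6% over all genes with a symbol. Gonad somatic cell genes were present in 5 of 20, with sums of 94.2 to 139 CPM, most of it from AMHR2. The luteinizing hormone receptor LHCGR was at 16.4, 18.3 and 18.3 CPM, and the steroid enzyme HSD3B1 was at or under the floor with 2, 2 and 0 counts. The granulosa and Sertoli genes FOXL2 and AMH averaged 0.130 ± 0.106 CPM and 0.473 ± 0.181 CPM, whereas SOX9 averaged 13.5 ± 0.747 CPM. Erythroid genes were matched in 6 of 17 only, and their sum of 163 to 191 CPM came almost wholly from the transferrin receptor TFRC. SLC4A1, the red cell anion exchanger, was at 3.21, 3.12 and 1.41 CPM. The globin gene HBZ had 8, 0 and 0 counts and HBE had 3, 4 and 0 counts, and the blood factor HEMGN had 0 in every library. Leukocyte genes were present in 3 of 11 matched members and summed to 16.2 to 23.5 CPM, with the actin bundler LCP1 at 9.51, 8.05 and 8.47 CPM, the pan-leukocyte phosphatase PTPRC at 4.69, 3.67 and 3.39 CPM and the invariant chain CD74 at 3.40, 4.67 and 2.52 CPM. Endothelial genes were present in 3 of 17 and summed to 28.3 to 66.0 CPM, chiefly PECAM1 at 28.8, 26.3 and 14.5 CPM and FLT4 at 19.8, 19.0 and 6.70 CPM, with the blood factor LMO2 at 2.27, 1.43 and 1.80 CPM. CDH5 and VWF, also endothelial genes, averaged 0.227 ± 0.135 CPM and 0.208 ± 0.0759 CPM. Without replicate 3, endothelial genes called present numbered 6.

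Fibroblast markers held more reads than these lists, with 18 of 25 present (72%) and sums of 1873 to 2453 CPM. The share over all genes with a symbol was 81.6%. The intermediate filament VIM, which many cell types make, was at 778, 769 and 1044 CPM. Of the collagens, COL3A1 was at 205, 216 and 193 CPM, COL1A2 at 223, 211 and 671 CPM and COL1A1 at 110.4, 102 and 47.8 CPM. In replicate 3 COL1A2 was 3.18 times its lowest library, while its partner chain in type I collagen, COL1A1, was lowest there. SPARC, a matrix glycoprotein, was at 169, 161 and 128 CPM. ACTA2, of contractile cells, missed the threshold in replicate 3, at 14.6, 11.3 and 0.432 CPM, and so did the proteoglycan LUM, at 5.42, 3.25 and 0.180 CPM. TAGLN, a smooth muscle protein, was at or under the floor with 2, 0 and 2 counts. Whether other cells contributed to any of these transcripts was not tested.

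Of the W-linked genes 3 of 18 names matched and all were present. HINTW was at 582, 630.5 and 566 CPM, HNRNPKL at 139, 135 and 163 CPM and ATP5F1AW at 88.6, 87.0 and 86.5 CPM. Their reads can be shared with Z-linked copies, such as ATP5F1AZ at 655, 649 and 659 CPM.

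The 3 libraries were not equally far from each other. Over the 9559 genes with a mean of 10 CPM or more, the root mean square log2 difference was 0.13 between replicates 1 and 2, 0.34 between replicates 1 and 3, and 0.36 between replicates 2 and 3. Replicates 1 and 2 still differed by more than counting noise (chi-square per degree of freedom 6.53), so no libraries were merged. The common biological coefficient of variation, the spread beyond counting in edgeR's count model, was 0.174 over the 3 libraries and 0.0595 without replicate 3. Leaving out replicate 1 or 2 instead gave 0.215 and 0.206.

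The spread exceeded that from counting alone at every level of CPM. Genes with a mean of 1 to 3 CPM had a median coefficient of variation of 29.0% against 13.7% from counting alone. Genes between 100 and 300 CPM had 7.01% against 1.49%, and the 69 genes of 1000 CPM or more had 6.22% against 0.472%. A highest over lowest ratio of at most 1.2 was found for 4964 of 9559 genes (51.9%), and one above 2 for 167 (1.75%). In those 167, replicate 3 was the lowest library for 108 and the highest for 59.

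**Figure D5:**
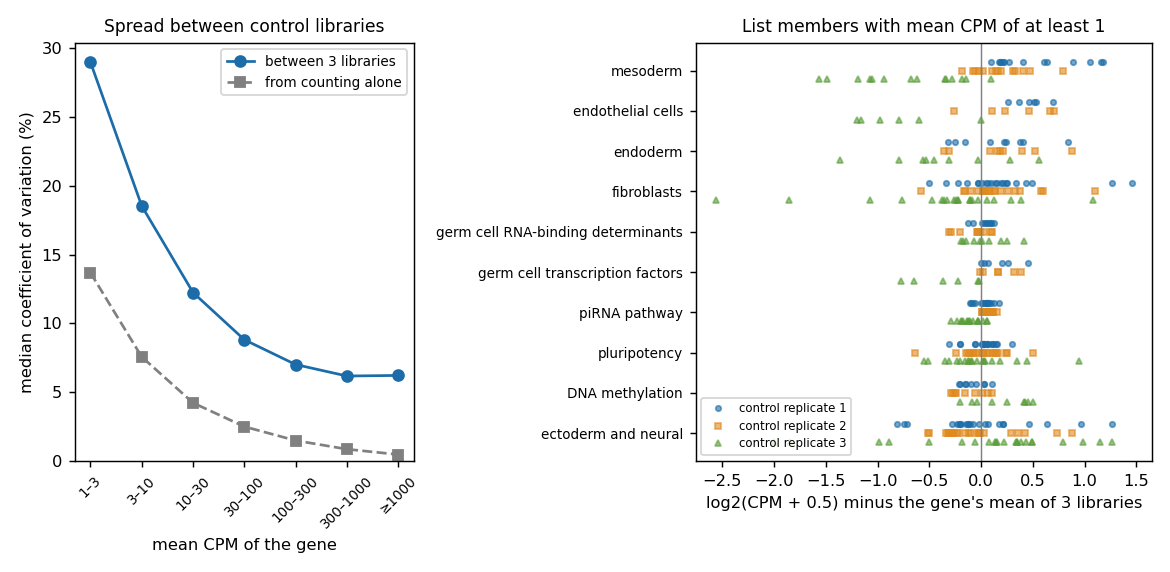
Left, the median coefficient of variation between the 3 control libraries (circles) and that from counting alone (squares) by mean CPM of the gene. Right, the distance of each list member's log2(CPM + 0.5) from its mean of 3 libraries, with 1 marker per library. In replicate 3 the mesoderm, endothelial, endoderm, fibroblast, piRNA, pluripotency and germ cell transcription factor members lie mostly left of 0. The ectoderm and DNA methylation members lie mostly right of it there. Members with a mean under 1 CPM are not drawn.

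The genes with the widest spread, by the SD of log2(CPM + 0.5) and with a mean of 10 CPM or more, split into those high and those low in replicate 3. High there were LUZP2 at 6.80, 8.63 and 40.9 CPM, the carbonic anhydrase CA2 at 5.23, 5.65 and 29.2 CPM and LRFN1 at 7.81, 8.21 and 32.4 CPM. SIX3, the membrane protease MME at 9.42, 8.02 and 29.8 CPM and the microtubule protein MAP1B at 48.2, 42.4 and 149.7 CPM were also highest there. Low in replicate 3 were the transporter ABCB5 at 31.0, 35.7 and 8.25 CPM, ZNF185 at 15.6, 15.4 and 4.32 CPM and the chemokine CXCL14 at 29.1, 29.9 and 8.61 CPM. POLR3C, a subunit of RNA polymerase III, was at 21.5, 39.0 and 7.42 CPM, so that replicates 1 and 2 differed too. Among the steadiest genes with a mean of 100 CPM or more were PABIR3 at 139 ± 0.263 CPM, the cap-binding subunit NCBP2 at 215 ± 0.420 CPM and the RNA-granule protein LSM14B at 163 ± 0.463 CPM. TSSC4 averaged 147 ± 0.465 CPM.

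The summed CPM of all matched members of a list, with no filter on their level, also differed between the libraries. Mesoderm genes summed to 466, 436 and 309.8 CPM, endoderm genes to 86.0, 84.5 and 54.6 CPM and endothelial genes to 66.0, 59.6 and 28.3 CPM, each lowest in replicate 3. Replicate 3 was likewise the lowest for germ cell transcription factors, at 252, 257 and 209 CPM, for the piRNA pathway, at 1856, 1887 and 1623 CPM, and for pluripotency genes, at 8569, 8601 and 8090.2 CPM. It was the highest for ectoderm and neural genes, at 927, 917 and 1154 CPM, for fibroblast markers, at 1923, 1873 and 2453 CPM, and for cell cycle drivers, at 3119, 3104 and 3699.8 CPM. Germ cell RNA-binding genes summed to 3759.8, 3790.4 and 3848 CPM. These sums use plain library totals and were not computed with TMM scaling. Its factors of 1.016, 1.012 and 0.972 would raise replicate 3 against replicates 1 and 2. That would narrow a small gap such as the one of the pluripotency genes, and widen the gaps where replicate 3 was the highest. The counts of genes lowest or highest in replicate 3 use plain totals as well. A sum follows the genes with the most reads: among fibroblast markers COL1A2 and VIM were highest in replicate 3, while COL1A1, SPARC, ACTA2 and LUM were lowest there. Most lineage genes had few counts, and a difference between single libraries has no replicate behind it.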

How the data were processed

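Per the labels' protocols, RNA extracted with a Nucleospin kit was made into directional libraries. The authors deposited raw counts, whole numbers per Ensembl gene, in 1 table per library, and the 3 control tables were used. Per the submitters' processing notes the builds were GRCg6a and galGal6, and the tools edgeR 3.38.4, DESeq2 1.36.0, featureCounts 2.0.3 and HISAT2 2.1.0, with no role stated. Neither the labels nor the notes state the strand setting of the counting or the annotation release. Near copies and overlapping genes can therefore share reads. Symbols came from the authors' 2 deposited comparison tables, which list genes with at least 10 counts over 6 libraries and pair 13354 of 24356 identifiers with a symbol. Of these, 10 had turned into dates and were dropped, leaving 13344. No symbol of a mitochondrially encoded gene was found, and matching ignored letter case. The gene table at hand, of assembly GRCg7b, did not carry these identifiers, and no coordinates are printed. Its current symbols replaced LOC numbers where it held one. Its synonyms served to match list members found under no other name.

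CPM was the count over the library total. With 1 group there was no test. The spread was estimated with edgeR 4.0.16 in R 4.3.3 (TMM, filterByExpr, intercept only) after a check on simulated data. Alternatives were other thresholds, TMM, DESeq2 1.42.0 size factors, other filters and pseudocounts, and leaving out each library. Genes named were the 5 markers, LIN28A, LIN28B, the 15 with the highest mean CPM and a symbol, the first 3 present and up to 4 at or under the floor per list or family, the 10 widest and 5 steadiest, and others picked after values were seen. Some genes that this rule would name are not reported here. The ratio of 1.2 used to describe small spread was also set after values were seen. The members and the 30 lists were chosen with earlier results of these data known.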

Additional observations from a re-analysis of the deposited data

How the results depend on the processing

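The number of genes called present was 12709 and stayed within 1.5 times of that under every alternative that was run, from 10460 at 5 CPM to 13569 at 0.5 CPM. With TMM scaling or DESeq2 size factors it was 12711 each, 12696 of them shared with the plain totals. Leaving out a library gave 12782 to 13084 present genes, and the share of the first 10 genes was 4.48% to 4.85%. No list count moved by over 1.5 times with TMM scaling or DESeq2 size factors. At 0.5 CPM the present egg and sperm products numbered 7, gonad somatic genes 10 and endothelial genes 6. At 5 CPM meiosis kept 5 present genes, signalling ligands 18, mesoderm 3, endoderm 1, ectoderm and neural 13, gonad somatic cells 3, erythroid cells 1 and leukocytes 1. Leaving out each library in turn gave 4 to 8 present egg and sperm products, 7 to 14 mesoderm genes and 3 to 6 endothelial genes, the upper number each time without replicate 3. The common coefficient of variation (0.174) ran from 0.0595 to 0.215 and the root mean square log2 difference (0.28 over the 3 pairs) from 0.13 to 0.36 when a library was left out, both lowest without replicate 3. Levels per coding length were not computed, as no transcript or protein lengths were used here. No paired analysis was possible because a single group is described and nothing is compared between groups. Depth limits genes near 1 CPM, where counting alone gives a coefficient of variation of 13.7% in the lowest bin.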

Other observations

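Transcription factor families were chosen by symbol after values had been seen. Their counts of present genes are to be read against the 81.6% over all genes with a symbol. In the POU, SOX and T-box families a few members had many more reads than the rest. KLF genes fell off more gradually, with KLF5, KLF10 and KLF11 averaging 113, 67.8 and 65.3 CPM. POU factors were present in 7 of 11 genes with a symbol, and after POU5F3 the next was POU2F1, a widely made factor, at 25.5, 25.9 and 44.1 CPM. Of the SOX genes 11 of 16 were present, with SOX4 at 25.3, 22.4 and 35.9 CPM. T-box genes were present in 7 of 16, among them MGA, a MAX partner in gene repression, at 109, 97.5 and 151 CPM. KLF genes were present in 11 of 13, with KLF10 at 71.8, 72.2 and 59.5 CPM after KLF5.

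GATA genes were present in 1 of 5, the present one being GATA5 at 8.01 ± 3.41 CPM. This count and those that follow stand beside the 81.6% over all genes with a symbol. GATA2, a factor of blood and ectoderm, was at 7.84, 7.37 and 0.685 CPM. Forkhead genes were present in 18 of 30, with the mitotic factor FOXM1 at 61.1, 62.4 and 61.1 CPM. All 7 E2F genes were present, which a family this small can show without being set apart. The eye field factor SIX6 was at 1.1, 1.07 and 18.7 CPM, with replicate 3 the highest, as it was for SIX3. Collagen chains were present in 27 of 31, with the cartilage collagen COL2A1 at 306, 296 and 264 CPM. Connexins were present in 7 of 12, led by GJA1 at 137, 130.3 and 102 CPM.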
